A study of Arabidopsis thaliana with 6 samples.

Results

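The 80 Arabidopsis genes described here go by a locus code in the annotation used here and had high signals in seedlings dosed with the explosive 2,4,6-trinitrotoluene (TNT). They are 80 of 11933 probe sets on the Affymetrix ATH1 array that are paired with 1 gene whose symbol is a plain locus code, each member being measured by 1 probe set. They were chosen from measured values: the lower signal of TNT replicates 1 and 3 had to be at least 2 times the highest of the 3 DMF signals and at least 50 on the linear MAS5 scale. AT2G21640 and AT5G48570 were left out by name, and TNT replicate 2 took no part in the choice. That TNT replicates 1 and 3 lie above the DMF arrays is therefore how the members were found, not a result. The DMF arrays took part in the choice as well, so the values of members are descriptions, and counts of limma calls among them are given only beside those over all probe sets, with nothing read from them.

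TNT seedlings, 3 samples, were wild-type Col-0 given 60 µM TNT dissolved in 60 µl of dimethylformamide (DMF), and DMF seedlings, 3 samples, were Col-0 given 60 µl of the solvent alone. All were whole plants grown for 13 days with shaking in 100 ml of liquid medium, 10 seedlings to a flask under a 16 h photoperiod, and RNA was taken 6 h after dosing. Whether the replicates of a group grew in different flasks is not given in the labels, and 1 TNT title carries no replicate number and was taken as replicate 1. In whole seedlings fewer cells of a type and less RNA per cell cannot be told apart.

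Plants deal with TNT much as with other toxic small molecules. Its nitro groups are reduced, the products are joined to sugars or glutathione, and the conjugates are moved into the vacuole or bound to the wall. A reductase of mitochondria and plastids can also pass an electron to TNT, and the radical formed gives superoxide, so that genes of detoxification and genes known to answer mitochondrial stress are both studied in TNT-treated plants. Many stress-responsive loci carry no symbol in array annotation, although the protein family of most is known.

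TNT replicate 2 stood apart from the other TNT arrays. Over the 13648 probe sets tested, its log2 signals correlated at 0.975 with DMF replicate 2 and at 0.888 and 0.906 with TNT replicates 1 and 3. With DMF replicates 1 and 3 they correlated at 0.934 and 0.948, so every DMF array was closer to it than either other TNT array. Correlations here run across probe sets, which are not independent. Each value below is a signal on the linear MAS5 scale unless stated otherwise, and lists of 3 run in the order of replicates 1, 2 and 3. The ratio of a gene means the lower of TNT replicates 1 and 3 over the highest DMF signal. The highest signal of control probe sets for bacterial genes, 7.76, 11.9 and 12.1 on the TNT arrays and 6.34, 14.3 and 9.19 on the DMF arrays, served as a floor.

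Of the locus-code probe sets that could be chosen, 0.671% met these limits, against 1.71% of the 1580 probe sets paired with 1 gene that has another symbol, 27 in number. The mirrored limits, both TNT replicates 1 and 3 at most 0.5 times the lowest DMF signal with that signal at 50 or more, were met by 22 locus-code probe sets, 0.184%. Among the 80 members the ratio ran from 2.05 to 62.6 with a median of 3.36. It was at least 10 for 12 members, between 3 and 10 for 31 and under 3 for 37. Of the 12, AT1G57630, AT1G26380 and AT4G37290 had their highest DMF signal under the floor of its array, so their ratios are set against background. The members just inside the limit were AT2G33710 (2.07), AT5G42830 (2.07) and AT5G17380 (2.05), and those just outside were AT3G45260 at 1.998, AT3G07720 at 1.997 and AT5G18470 at 1.97. On the signal limit, AT4G37290 was just inside with a lower TNT signal of 50.9 and AT5G16980 just outside with 49.5.

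**Figure D1:**
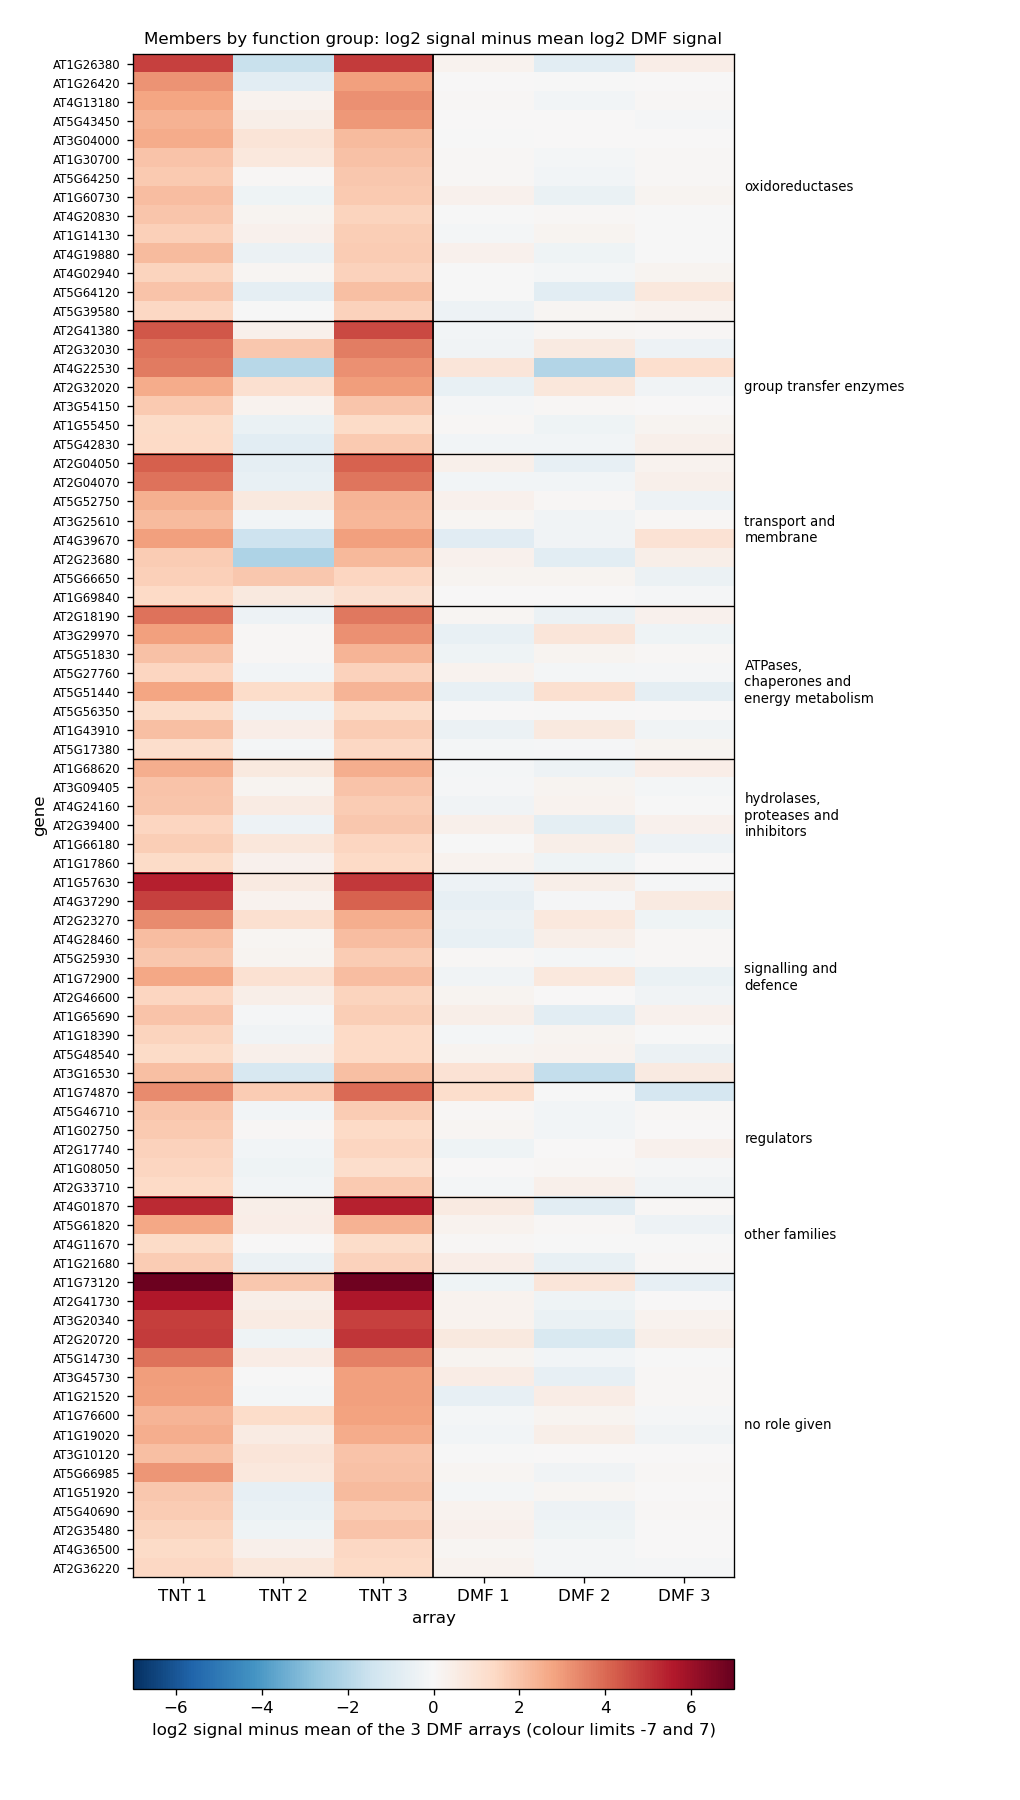
Log2 signal of each of the 80 members minus its mean log2 signal over the 3 DMF arrays, with a row for each gene, arranged by function group and by ratio within a group, and a column for each array, TNT left of DMF. TNT replicates 1 and 3 are higher than the DMF mean in every row by the way the members were chosen. The median of their mean difference is 2.04, and rows with low ratios are pale there too, since the colour scale is wide. TNT replicate 2, with a median difference of 0.17, is paler in most rows and above the highest DMF signal in 37 of 80.

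Of the 12 members with a ratio of at least 10, 4 have no role given here, 2 are of signalling and defence, 2 of transport and membrane, and 4 other groups hold 1 each. AT1G73120 had signals of 2017, 64.0 and 1962 with TNT, against 14.5, 31.3 and 11.9 with DMF. AT2G41730, a gene known to respond to inhibitors of mitochondrial respiration, had 1330.0, 36.1 and 1356 with TNT, against 32.9, 22.4 and 27.5 with DMF. In both, the other 4 arrays lay far below TNT replicates 1 and 3. The AT2G41730 probe set is of a type whose probes can match other transcripts, and it was the only 1 of that type among the members. AT4G01870, of the TolB-related family, had 2948, 103 and 3332 with TNT, against 123, 47.3 and 84.9 with DMF. AT3G20340 had 748, 39.4 and 716 with TNT, against 30.8, 18.9 and 30.4 with DMF, and AT2G20720 had 124, 3.40 and 131 with TNT, against 6.51, 1.98 and 5.45 with DMF. For AT2G20720 the signals of TNT replicate 2 and of DMF replicates 2 and 3 lay under the floor, so the size of its ratio, 19.1, is uncertain.

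**Figure D2:**
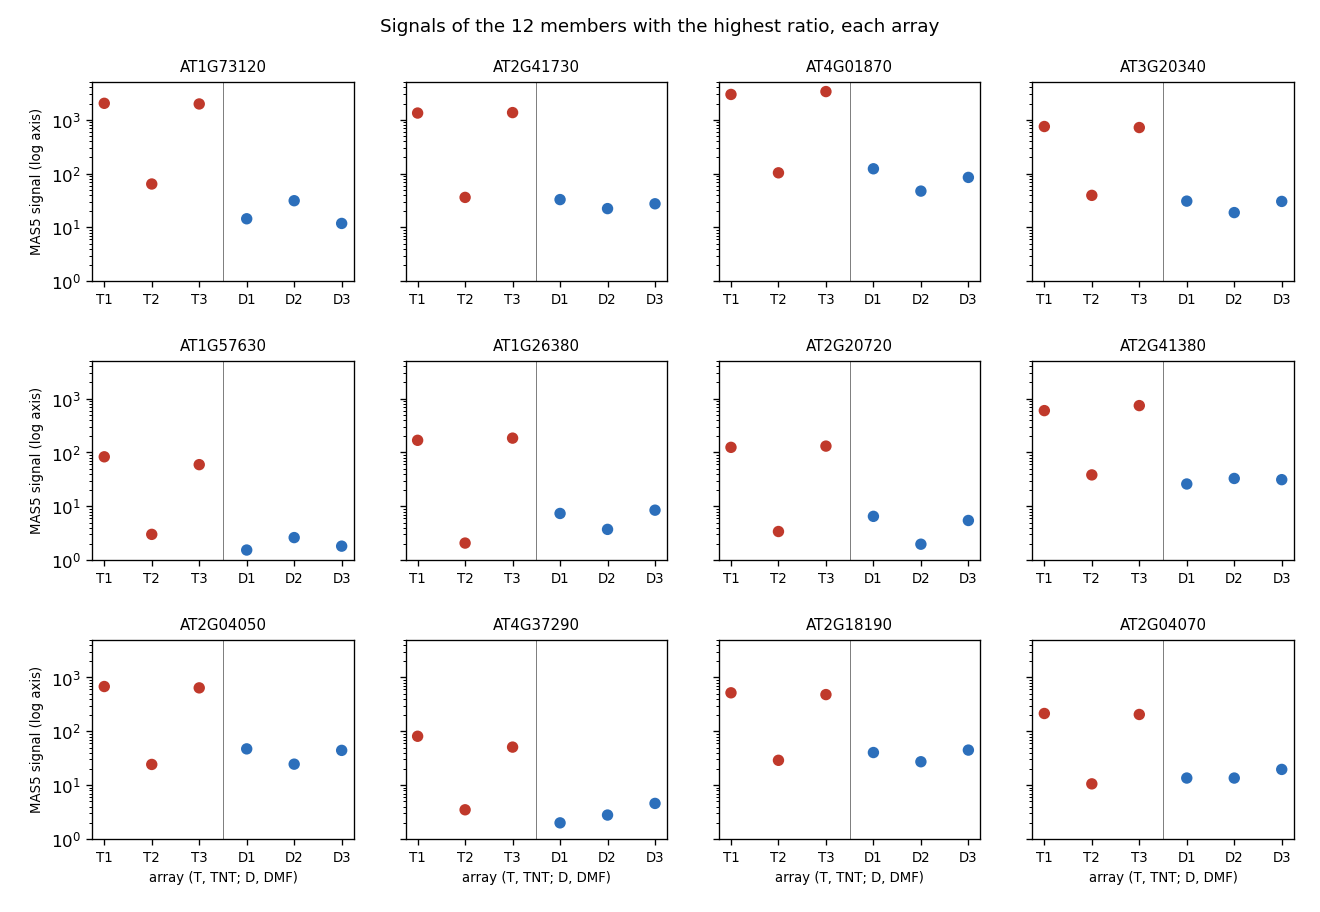
Signal of the 12 members with the highest ratio on each array, on a log axis, with TNT replicates 1 to 3 (T1 to T3, red) left of DMF replicates 1 to 3 (D1 to D3, blue). TNT replicates 1 and 3 lie above the DMF arrays in every panel by the choice, and TNT replicate 2 lies among or near the DMF arrays, reaching 64.0 in AT1G73120.

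Oxidoreductases formed the largest family group, with 14 members and ratios from 2.26 to 19.8. Most enzymes of these families oxidise or reduce small molecules. AT1G26380, a berberine bridge enzyme-like flavoprotein that makes indole-derived defence compounds, had 168, 2.08 and 185 with TNT, against 7.37, 3.73 and 8.48 with DMF. AT1G26420, of the same family, had 74.6, 5.02 and 63.0 with TNT, against 8.48, 8.41 and 8.52 with DMF. In both, TNT replicate 2 was lower than every DMF array, but that value lay under the floor, as did those of DMF replicates 2 and 3. AT1G30700, another berberine bridge enzyme-like gene, differed from these in that TNT replicate 2 also stood above the DMF arrays, the signals being 136, 56.7 and 141 with TNT, against 36.2, 30.9 and 36.0 with DMF. The last of the 4 genes of this family was AT4G20830, with a ratio of 2.81.

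Reductases that act on carbonyls were present as 2 short-chain dehydrogenases and 1 aldo-keto reductase. AT4G13180, a short-chain dehydrogenase, had 593, 102 and 813 with TNT, against 92.8, 78.0 and 92.3 with DMF. AT3G04000, of the same class, had 169, 52.3 and 129.6 with TNT, against 27.0, 28.4 and 28.3 with DMF, with TNT replicate 2 above the DMF arrays too. The aldo-keto reductase AT1G60730 had a ratio of 3.00 and AT4G19880, of the glutathione S-transferase superfamily, one of 2.77. Of the iron and 2-oxoglutarate dependent oxygenases, AT5G43450 had a ratio of 5.19, AT1G14130, which oxidises auxin, 2.81, and AT4G02940, of the AlkB family of RNA demethylases, 2.58. AT5G64250, related to enzymes that oxidise nitroalkanes, stood at 3.35, and the class III peroxidases AT5G64120 and AT5G39580 at 2.34 and 2.26.

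Enzymes that transfer methyl, acetyl or acyl groups numbered 7. AT2G41380, a methyltransferase, had 598, 38.3 and 741 with TNT, against 26.0, 32.9 and 31.2 with DMF, with TNT replicate 2 just above the DMF arrays. The methyltransferase AT4G22530 had 110.0, 2.32 and 81.5 with TNT, against 15.9, 2.12 and 20.2 with DMF, so both arrays numbered 2 were under the floor. The other methyltransferases, AT3G54150 and AT1G55450, had ratios of 3.38 and 2.17, and the BAHD acyltransferase AT5G42830 one of 2.07, from signals of 122, 28.0 and 164 with TNT, against 41.1, 41.0 and 59.0 with DMF. AT2G32030 and AT2G32020 encode acetyltransferases of the GNAT family and lie next to each other, with 0 protein-coding genes between them in the TAIR10.1 order. AT2G32030 had 125, 33.1 and 108 with TNT, against 7.54, 13.8 and 7.08 with DMF. AT2G32020 had 142, 51.6 and 178 with TNT, against 16.4, 40.1 and 19.9 with DMF. Both were higher on DMF replicate 2 than on the other DMF arrays and higher again on TNT replicate 2, although DMF replicates 2 and 3 of AT2G32030 lay under the floor.

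Transport and membrane proteins numbered 8. The multidrug and toxin extrusion (MATE) transporters AT2G04050 and AT2G04070 are efflux carriers of organic compounds. AT2G04050 had 679, 24.3 and 641 with TNT, against 47.2, 24.6 and 44.3 with DMF. AT2G04070 had 214, 10.6 and 206 with TNT, against 13.6, 13.6 and 19.6 with DMF. For both, TNT replicate 2 lay below every DMF array, and for AT2G04070 both arrays numbered 2 were under the floor. They have 4 protein-coding genes between them, and AT1G26380 and AT1G26420 have 3. The 3 pairs named here were the only member pairs with at most 4 genes between them, and in each the partners share a family, so probes that match both partners could link their signals; this was not examined. AT5G52750, with a heavy-metal-associated domain, had 155, 43.7 and 143 with TNT, against 34.2, 28.4 and 21.0 with DMF. The lipid flippase AT3G25610 had a ratio of 4.15, AT4G39670, of the glycolipid transfer family, 3.53, and AT2G23680, of the WCOR413 cold-acclimation family, 2.59.

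AT5G66650, of the mitochondrial calcium uniporter family, was the only member whose signal on TNT replicate 2 exceeded those on both other TNT arrays, the signals being 178, 205 and 154 with TNT, against 63.6, 62.8 and 42.0 with DMF. AT1G69840, a band 7 protein of membrane microdomains, had 434, 272 and 360.2 with TNT, against 173, 173 and 158 with DMF, with TNT replicate 2 above the DMF arrays too.

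ATPases, chaperones and enzymes of energy metabolism numbered 8. The AAA-type ATPase AT2G18190 had 519, 29.0 and 481 with TNT, against 40.4, 27.2 and 44.8 with DMF. AT3G29970, of the B12D family, had 69.4, 10.1 and 89.4 with TNT, against 6.71, 17.2 and 7.74 with DMF, and the sugar kinase AT5G51830 had 158, 39.3 and 196 with TNT, against 30.7, 43.4 and 39.5 with DMF. In these 3 genes TNT replicate 2 lay within the DMF range. On TNT replicate 2, 1 of the 8 stood above the highest DMF signal, against 25.1% of all probe sets and 46.2% of the members. That gene, AT5G51440, a mitochondrial small heat shock protein, had 276, 103 and 213 with TNT, against 29.0, 89.8 and 27.3 with DMF, so the arrays numbered 2 were close to each other. AT1G43910, the other AAA-type ATPase, had a ratio of 2.15, the hypoxia-responsive family gene AT5G27760 2.45 and the pyruvate kinase AT5G56350 2.36. AT5G17380, a thiamine-dependent lyase of fatty acid breakdown, had 618, 244 and 716 with TNT, against 243, 247 and 302 with DMF.

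Hydrolases, proteases and a protease inhibitor numbered 6. On TNT replicate 2, 5 of them stood above the highest DMF signal, against 25.1% of all probe sets and 46.2% of the members. AT1G68620, of the carboxylesterase type, had 96.8, 27.3 and 98.8 with TNT, against 15.5, 13.4 and 23.0 with DMF. AT3G09405, a pectin acetylesterase, had 154, 45.5 and 156 with TNT, against 37.2, 44.9 and 35.9 with DMF. AT4G24160, a hydrolase and acyltransferase of lipid metabolism, had 373, 149 and 341 with TNT, against 84.2, 117 and 97.3 with DMF. In all 3 genes TNT replicate 2 lay above the DMF arrays too, by the narrowest margin in AT3G09405. The aspartyl protease AT1G66180 had a ratio of 2.12, the Kunitz-type trypsin inhibitor AT1G17860 2.09 and the hydrolase AT2G39400, the exception on TNT replicate 2, 2.21. For AT1G17860 the margin was narrow too, with 454 on TNT replicate 2 against 447 on DMF replicate 1.

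Genes of signalling and defence numbered 11. On TNT replicate 2, 6 of them stood above the highest DMF signal, against 25.1% of all probe sets and 46.2% of the members. AT1G57630, a protein with the TIR domain of immune receptors, had 83.0, 3.01 and 59.4 with TNT, against 1.54, 2.62 and 1.82 with DMF. AT4G37290, a precursor of a secreted peptide that amplifies immune responses, had 81.0, 3.49 and 50.9 with TNT, against 2.00, 2.79 and 4.59 with DMF. All DMF signals of these genes lay under the floor, and they were the only members of which this held. On TNT replicate 2 both genes lay under the floor too. AT1G57630 is 1 of the 6 above, so its place there compares background with background. The lower signal of TNT replicates 1 and 3, which the choice used, was 4.14 times the highest floor of the DMF arrays in AT1G57630. In AT4G37290 it was 3.55 times that floor. The related peptide precursor AT2G23270 had 92.8, 20.6 and 54.6 with TNT, against 7.01, 15.7 and 7.63 with DMF, and AT4G28460, also of that family, had a ratio of 3.37. The receptor-like kinases AT5G25930 and AT1G18390 had ratios of 3.18 and 2.29, and the other TIR protein, AT1G72900, 2.71. The calcium-binding EF-hand protein AT2G46600 had a ratio of 2.47. AT1G65690, of the NDR1/HIN1-like family, stood at 2.41, the secreted DUF26 protein AT5G48540 at 2.18 and the lectin AT3G16530 at 2.14.

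Regulators numbered 6 and had low to moderate ratios, with a median of 2.37. The RING finger gene AT1G74870 had 53.6, 18.7 and 83.3 with TNT, against 12.6, 5.26 and 2.36 with DMF. Its DMF signals spread widely, and those of DMF replicates 2 and 3 lay under the floor. AT5G46710, a PLATZ zinc-finger transcription factor, had 402, 93.4 and 354 with TNT, against 110.4, 92.4 and 113 with DMF. AT1G02750, of the drought-induced Di19 zinc-finger family, had 238, 69.0 and 174 with TNT, against 71.8, 58.3 and 67.3 with DMF. In both, TNT replicate 2 lay within the DMF range. The ERF transcription factor AT2G33710 had 53.4, 17.4 and 70.4 with TNT, against 18.3, 25.8 and 17.2 with DMF, and the RING finger gene AT1G08050 and the C1-domain gene AT2G17740 had ratios of 2.25 and 2.30. On TNT replicate 2 only AT1G74870 of these 6 exceeded its highest DMF signal, against 25.1% of all probe sets and 46.2% of the members.

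Members of other families were AT4G01870, given above, AT5G61820, AT4G11670 and AT1G21680. AT5G61820, related to the legume nodulation protein Nod19, had 1605, 334 and 1309 with TNT, against 289, 262 and 192 with DMF, and AT4G11670, of a domain family of unknown function, had 182, 73.0 and 173 with TNT, against 74.9, 69.8 and 71.6 with DMF. AT1G21680, with a beta-propeller domain like that of AT4G01870, had a ratio of 2.27. No role is given here for 16 members, and their median ratio was 4.45. Besides those given with all signals here, AT5G14730 reached 9.91, AT3G45730 5.27, AT1G21520 5.10 and AT1G19020 4.38. Lower ratios were those of AT1G51920 (3.43), AT5G40690 (2.89), AT2G35480 (2.44), AT4G36500 (2.32) and AT2G36220 (2.19).

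For each member the higher signal of TNT replicates 1 and 3 exceeded the lower by a median factor of 1.13. TNT replicate 1 was the higher for 42 and TNT replicate 3 for 38. The factor was above 1.5 for AT1G74870, AT2G23270, AT4G37290, AT5G43450 and AT5G66985, at most 2.12 in AT5G66985, which had 159.7, 31.1 and 75.3 with TNT, against 20.5, 15.6 and 19.8 with DMF.

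TNT replicate 2, which did not enter the choice, stood above the highest DMF signal for 37 of 80 members (46.2%), against 25.1% of all 22746 probe sets. It lay within the DMF range for 28 members and below it for 15. In the groups not counted above, TNT replicate 2 exceeded the highest DMF signal for 6 of 14 oxidoreductases and 4 of 7 group transfer enzymes. The same held for 3 of 8 transport and membrane proteins, 1 of 4 members of other families and 10 of 16 without a role. The groups are small and were formed after the members were known, so nothing is read from their differences. For 11 of the 80 members the signal of TNT replicate 2 was under the floor of that array and so near background. It reached at least 1.5 times the highest DMF signal for 9 members (11.2%), against 2.89% of all probe sets. These 9 were AT5G66650, AT2G32030, AT1G76600, AT1G73120, AT3G04000, AT3G10120, AT1G30700, AT1G69840 and AT5G66985. AT1G76600 had 461, 222 and 626 with TNT, against 82.6, 102 and 85.6 with DMF, and AT3G10120 had 91.2, 37.4 and 82.8 with TNT, against 20.5, 21.2 and 21.4 with DMF. That all 3 TNT signals of these 9 lie above the DMF signals follows from how they were picked. In 8 of them TNT replicate 2 was the lowest of the TNT arrays. The highest DMF signal itself took part in the choice, which can favour genes in which that signal is low. The part of this in the counts of 37 and 9 was not tested.

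**Figure D3:**
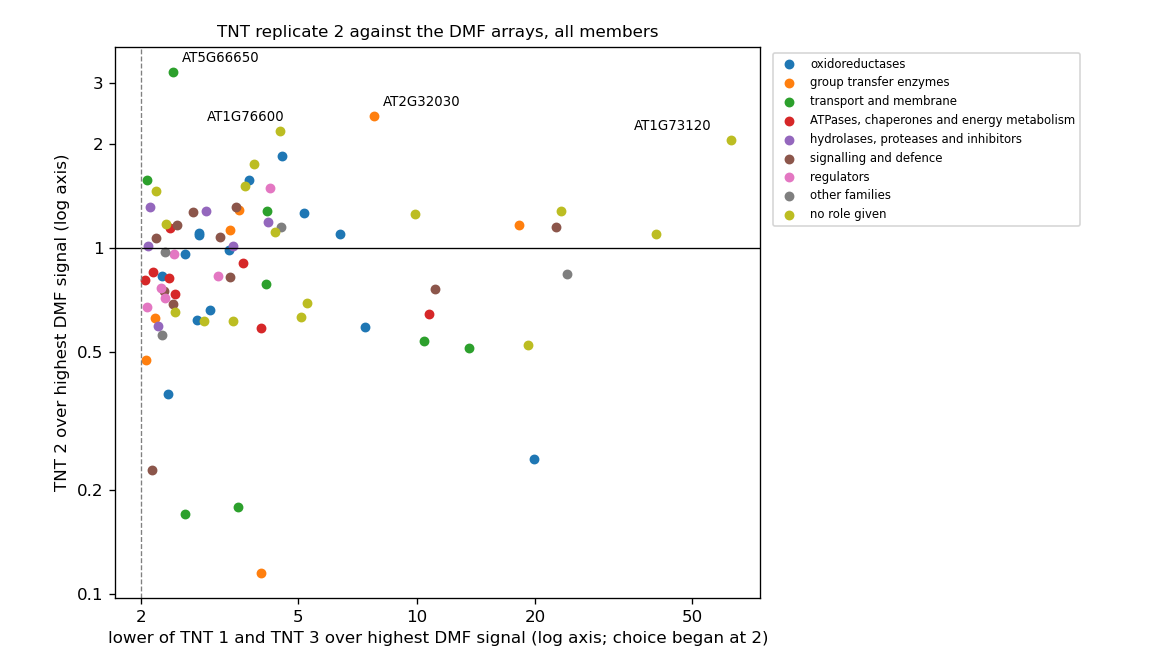
Signal on TNT replicate 2 over the highest DMF signal (vertical, log axis) against the ratio that entered the choice (horizontal, log axis, dashed line at the limit of 2) for the 80 members, coloured by function group. The 37 points above the solid line at 1 are spread over the whole width of the plot, and AT5G66650 stands highest at 3.22.

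Set against its partner by number, TNT replicate 2 exceeded DMF replicate 2 for 56 of 80 members (70.0%), against 42.5% of all probe sets. Among the 56 are AT1G57630, AT4G37290, AT2G20720 and AT4G22530, in which both arrays of this pair lay under the floor. The median log2 difference of that pair over the members was 0.20, against -0.06 over all probe sets. In pairs 1 and 3, which the choice used, the members' medians were 2.05 and 1.98, against 0.02 and -0.04 over all probe sets. Over the members the difference in pair 2 and the mean difference of pairs 1 and 3 correlated at r = 0.22 (80 genes, not independent, with no arrays in common), against 0.15 over the tested probe sets. DMF replicate 2 itself took part in the choice, which can favour genes that are low on it, and the part of this in the counts was not tested. The 27 probe sets with another symbol that met the same limits had 23 above DMF replicate 2, a median of 0.35, and 14 above the highest DMF signal. No test of the locus-code genes against these was made.

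**Figure D4:**
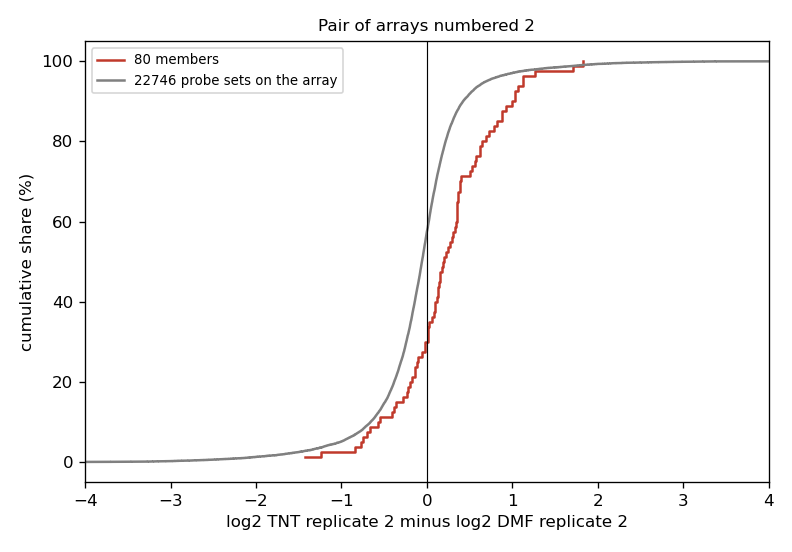
Cumulative share (vertical, percent) of the log2 difference between TNT replicate 2 and DMF replicate 2 (horizontal) for the 80 members (red) and all 22746 probe sets (grey). The red curve lies to the right of the grey one over most of its length, with medians of 0.20 and -0.06, and its highest value is 1.83. That value is of AT1G74870, whose DMF replicate 2 signal of 5.26 lay under the floor.

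DMF replicate 2 differed from the other DMF arrays for several members. It was at least 2 times both of the others for 5 members (6.25%), against 9.24% of all probe sets: AT1G73120, AT2G23270, AT2G32020, AT3G29970 and AT5G51440. The choice limits this number, since a high DMF replicate 2 raises the signal that TNT had to exceed. It was at most 0.5 times both of the others for 6 members (7.5%), against 2.28% of all probe sets: AT1G65690, AT2G20720, AT2G23680, AT2G39400, AT3G16530 and AT4G22530. The lectin AT3G16530 had 1259.6, 135 and 1282 with TNT, against 589, 95.0 and 465 with DMF. In 5 of the 6 TNT replicate 2 was above DMF replicate 2, and in 0 of the 6 was it above the highest DMF signal. For AT2G20720, AT2G23680 and AT4G22530 both arrays numbered 2 lay under the floor. In these genes the comparison of the 2 arrays is of background with background. How far DMF replicate 2 lies below the other DMF arrays there is uncertain.

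In limma over all 6 arrays, 0 of the 67 members that passed the filter on low signal were called at an adjusted p under 0.05, as were 0.0% of all 13648 probe sets tested. At an unadjusted p under 0.05 there were 46 of the 67, and 1195 of all, and with array weights limma called 2896 of all. Without TNT replicate 2, 66 of the 67 were called higher, against 3.69% of all probe sets. Nothing is read from these counts of members, adjusted or not, since the arrays that chose the members are in both fits. The other 13 members had a mean log2 signal under the 40th percentile and were not tested.

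The members overlap 2 lists of loci known to respond to related conditions. Of 16 loci known to respond to mitochondrial dysfunction, 8 have a probe set of their own here and 5 are members: AT2G41730, AT2G41380, AT2G04050, AT5G43450 and AT2G32020. Members make up 0.671% of the locus-code probe sets that could be chosen. The mitochondrial stress gene AT2G21640 and NDB2, an alternative NAD(P)H dehydrogenase, met the same limits, with ratios of 3.45 and 2.18. The twin-cysteine gene AT5G09570 did not, its signals being 63.2, 47.1 and 69.7 with TNT, against 37.3, 74.7 and 43.9 with DMF. All 8 were tested without TNT replicate 2, where limma called 7 higher and 0 lower, against 3.69% of all probe sets called higher, and over all 6 arrays 0 were called. All 7 met the limits on the arrays of that fit, so nothing is read from their count. Of 24 loci known to respond to foreign compounds, 8 have such a probe set and AT3G04000 and AT1G60730 are members. Of these 8, 7 were tested without TNT replicate 2 and called higher, against 3.69% of all probe sets, and 5 of the 7 met the limits on the same arrays, so nothing is read from this count either. Called without meeting them were ALDH7B4 and the MATE gene AT1G33110. AT1G33110 had 115, 80.0 and 127 with TNT, against 35.8, 69.8 and 35.3 with DMF. Both lists were drawn up with earlier results of these data known, and membership is itself the rise, so nothing is read from either overlap.

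Measures of tissue and RNA also differed between arrays. Of 5 root loci, 4 have a probe set of their own, with summed signals of 3077, 2716 and 3281 on the TNT arrays, against 3454, 2860 and 3390 on the DMF arrays, most of it from the root glucosidase PYK10. The root hair expansins EXPA7 and EXPA18 summed to 41.2, 91.4 and 53.9 with TNT, against 102, 136 and 114 with DMF, so TNT replicate 2 was the highest TNT array. EXPA18 and PRK were called lower by limma without TNT replicate 2. Of 6 leaf loci only PRK, of the Calvin cycle, has such a probe set, at 1012, 1510.0 and 1093 with TNT, against 1780.2, 1524 and 1884 with DMF, and of 4 seed storage loci none has. The log2 ratio of 3′ to 5′ ubiquitin signal was 0.66, 0.63 and 0.72 with TNT, against 0.83, 0.87 and 0.84 with DMF, so all 3 TNT arrays lay below all DMF arrays. The signal of the 25S ribosomal RNA probe set was 966, 39.4 and 26.7 with TNT, against 696, 13.7 and 26.3 with DMF, so both arrays numbered 1 stood far above the others. The part of these in the members' values was not tested.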

How the data were processed

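RNA of 3 TNT and 3 DMF whole-seedling samples was measured on Affymetrix ATH1 arrays, 1 per sample. The intensity values deposited by the authors are linear probe set signals for which MAS5 and GCOS are named, per the submitters' processing notes; their versions and settings are not stated. The trimmed mean without the top and bottom 2% of values was 100.01 on every array, so the arrays had been scaled to a common level, which hides any change in total RNA. Low MAS5 signals are noisy because mismatch signal is subtracted. The files give no depth, and 6 arrays limit the precision.

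The array has 22810 probe sets, of which 64 controls were not used. Its annotation gave 1 gene for 13513, several for 503 and none here for 8730, and 13436 of the 13513 matched the TAIR10.1 reference table. Background comparisons used limma 3.58.1 in R 4.3.3 (lmFit, eBayes with an intensity trend, two-sided, Benjamini-Hochberg) on log2 signals without further normalization. It covered the 13648 probe sets at or above the 40th percentile of mean log2 signal, with a threshold of 0.05. It was also run on simulated data in which a probe set had the same noise on every array. Those data held no array that stood apart as TNT replicate 2 did, so nothing about such an array is read from that run. Since the labels do not tie replicates to separate flasks, p-values reflect only how far these samples vary, which could be technical.

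Members and gene lists were chosen with earlier results of these data known. Function groups came from general knowledge of Arabidopsis gene families after the members were known. All 6 signals are given for the 3 highest ratios in each function group, the 10 highest ratios of all, members with TNT replicate 2 at 1.5 times the highest DMF signal or more, and the 3 members nearest the limit. AT2G32020, AT5G51440 and AT3G16530 were added after their values were seen. Deviations from the group means correlated between same-numbered samples at 0.54, 0.47 and 0.43 for numbers 1, 2 and 3. No differently numbered samples were set beside them. Deviations within a group of 3 also depend on each other, so these values do not settle whether the samples are paired. The labels do not say what a number marks. Alternatives were other filters, an offset, other normalizations, array weights, the replicate block, other limits and each array left out in turn.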

Additional observations from a re-analysis of the deposited data

Results flagged for a closer look

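Probe sets outside the 80 members also met the same limits on signal and ratio. Among the 8730 probe sets without a name here there were 125 (1.43%), of which 61 had TNT replicate 2 above the highest DMF signal. Among the 503 probe sets paired with several genes there were 4 (0.795%), of which 2 had TNT replicate 2 above it. They are listed because they carry a signal that the comparisons above did not use, and no gene is named from them.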

How the results depend on the processing

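Over all 6 arrays limma called 0 probe sets, also with no filter, a higher filter, an offset of 16, quantile normalization or median centring. Array weights gave 2896. Leaving out 1 array gave from 0 to 947, with 947 without TNT replicate 2, 3 without DMF replicate 2, and 0 without any other. With the replicate block it called 0, and 2311 had an unadjusted p under 0.05.

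The number of locus-code probe sets that met the limits was 80. It was 167 with a limit of 1.5 times and 43 with 3 times. Under the replicate block, TNT replicates 1 and 3 were each set against the DMF array of their number. That gave 121, with TNT replicate 2 again not used. The number ranged from 61 to 93 with other signal limits and was 70 with an offset. It was 84 after quantile normalization (79 shared) and after median scaling (78 shared). With 1 array left out it was 80 to 113. Leaving out an array can only keep or raise the number under these limits, so nothing is read from that range.

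The 37 members with TNT replicate 2 above the highest DMF signal became 56 under the replicate block, which set it against DMF replicate 2 alone. They were 32 after quantile normalization (22.9% of all probe sets) and 28 after median scaling (19.4% of all), 35 among the 75 members with the highest DMF signal above the controls, and 39 or 40 with 1 DMF array left out. The median log2 difference between TNT replicate 2 and the DMF mean, 0.17, ran from 0.04 after median centring to 0.20 under the block; over all probe sets it was 0.09 as deposited. The cause of these shifts was not tested. The promoter motif search planned for the members was not run, since no promoter sequences were used here.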
